A study of Mus musculus with 15 samples.

Results

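Bone marrow-derived macrophages (BMDMs) that had received no ligand are described here from their own libraries alone, gene by gene, to show which genes and functions made up the transcriptome of the unstimulated cell. Members were chosen by label: the 5 control libraries of the 15 in the series, with all 25814 genes of the deposited table. The control cells came from adult wild-type C57BL/6 mice. Marrow cells had been kept for 6 days in DMEM with 10% fetal bovine serum, Penicillin/Streptomycin, 50 uM mercaptoethanol and 20% medium conditioned by L929 cells. The other libraries, from cells given poly(I:C) or CL075, were not used. The labels number the control replicates 1 to 5 but do not say whether the numbers stand for separate animals, so the spread between libraries may be partly technical.

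Macrophages take up particles and dying cells, digest them in acid lysosomes, store iron and lipid taken from them, and sense microbes through Toll-like receptors (TLRs) and cytosolic sensors. Marrow precursors become macrophages under colony-stimulating factor 1, which L929 cells secrete and which signals through the receptor encoded by Csf1r. A macrophage that meets interferon or a microbial ligand changes its transcriptome within hours, so the resting cell is the state from which such responses start.

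The control libraries held 25661175 to 31159953 counts, and between 13721 and 13923 genes had at least 1 count in a library. Levels of different genes are given in TPM (reads per gene length, scaled to a sum of 1000000 in each library), and values are mean ± SD over the 5 libraries (n = 5) unless said otherwise. Libraries are compared with each other in CPM, counts per 1000000 reads after scaling by TMM, a trimmed mean of the ratios between libraries, whose factors ran from 0.984 to 1.02. Chi-square per degree of freedom between pairs of libraries was 6.87 to 24.3, so no library was a repeat deposit of another and each was counted as 1 sample. A gene without a count in all 5 libraries was below 0.0215 CPM, the level of 3 reads among 139214149, and this floor covers counting error only. No p-value is given, because the values describe 1 group.

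Of the 25814 genes, 11206 had a mean above 0.5 TPM, the floor that the study's methods use for background expression, and are called detected here. This was 43.4% of the table and 51.1% of its 21878 protein-coding genes. Above the floor in each of the 5 libraries were 10893 genes. At the other end, 10496 genes had no count in any library. The median of the detected genes was 19.0 TPM.

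RNA was concentrated in few genes. The 126 genes above 1000 TPM held 45.4% of all TPM, the 1261 genes between 100 and 1000 TPM held 31.7%, and the 6119 genes between 10 and 100 TPM held 21.3%. The 3700 detected genes up to 10 TPM held 1.59%. The leading gene alone took 6.12% ± 0.279 of each library, the 10 leading genes 20.8% ± 0.417 and the 100 leading genes 42.5% ± 0.430. Between 174 and 189 genes were enough to hold 50% of the TPM of a library.

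**Figure D1:**
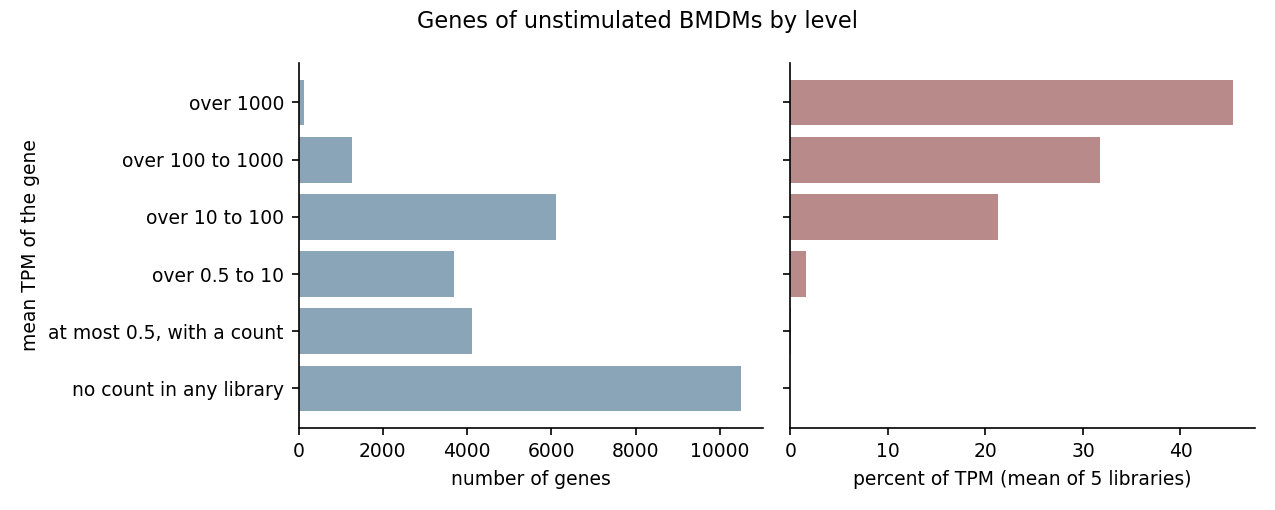
Number of genes (left) and percent of all TPM (right) by mean TPM of the gene in the 5 control libraries. The 126 genes above 1000 TPM held 45.4% of the TPM, whereas the 3700 detected genes up to 10 TPM held 1.59%.

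The most abundant transcript was that of Lyz2 (ENSMUSG00000069516, chr10:117277331-117282321, GRCm38), which encodes lysozyme, an enzyme that cuts bacterial cell walls. Lyz2 stood at 63903, 61144, 57284, 63855 and 60039 TPM in replicates 1 to 5, a mean of 61245 ± 2785. Its lowest library, replicate 3, was still above the highest library of every other gene. Fth1 (chr19:9982703-9985092), the heavy chain of the iron store ferritin, followed with 33884, 37562, 28866, 31178 and 30302 TPM. The third gene was mt-Co1 of the mitochondrial genome, which encodes the catalytic subunit of cytochrome c oxidase, at 24659 ± 1135 TPM. Behind these came mt-Co2, the translation elongation factor Eef1a1, the ferritin light chain Ftl1, mt-Atp6, the actin-binding peptide gene Tmsb4x, mt-Co3 and B2m, the light chain of MHC class I, which ranged from 15142 to 10041 TPM on average. The places down to 20 went to the lysosomal genes Psap, Ctss, Ctsb and Ctsd (8505 to 6610 TPM), Actb, Tpt1, mt-Nd1, Rpl10-ps3, the lipid carrier Apoe (4195 ± 555 TPM) and Fcer1g, the signalling chain of Fc receptors (3836 ± 186 TPM). By share of counts, which favors long transcripts, 15 of these 20 genes stayed among the leading 20.

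Genes were grouped by 45 function lists, whose genes held together 55.1% ± 0.577 of the TPM when each gene was counted once. A set of 15 of these lists, with 461 genes, held 50.1% ± 0.544. Lysosomal genes took the largest share at 10.99% ± 0.365, most of it from Lyz2, and macrophage markers, which also include Lyz2, took 9.64% ± 0.292. Next were cytosolic ribosomal proteins at 8.96% ± 0.307 and the 13 mRNAs of the mitochondrial genome at 8.66% ± 0.443. Genes of ferritin, iron and heme took 4.82% ± 0.516, the actin cytoskeleton 3.99% ± 0.0933 and translation factors 2.80% ± 0.0580. Shares between 1% and 2% belonged to MHC class I presentation, the nuclear genes of the respiratory chain, lipid handling, Fc receptors with their adaptors, the list of S100 proteins, galectins and annexins, and interferon-stimulated genes. A gene can be in several lists, so the shares of single lists do not add up.

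All 34 lysosomal genes were detected, 30 of them above 100 TPM. Psap, the precursor of the saposins that help to degrade sphingolipids, stood at 8505 ± 221 TPM. The cysteine proteases Ctss and Ctsb stood at 7153 ± 398 and 6825 ± 144 TPM, and the aspartic protease Ctsd at 6610 ± 500 TPM. The membrane protein gene Lamp1 had 2592 TPM, the protease gene Lgmn 2209 TPM and the progranulin gene Grn 2013 TPM on average. Lower members were Acp5 and Ctsk, enzymes of bone-resorbing osteoclasts, at 43.3 and 42.2 TPM, and the alpha-glucosidase gene Gaa at 24.9 TPM. The proton pump that acidifies the lysosome had 17 of 17 genes detected, with Atp6v1b2 at 455 TPM, Atp6ap1 at 438 TPM and Atp6v0c at 428 TPM, and the summed share of the pump, 0.360% ± 0.00493, was among the steadiest between libraries. AC034099.1, a gene model that lies over Ctsd on the same strand, stood at 2194 TPM, and 72.0% of its 75-base windows occur in Ctsd transcripts, so reads from those windows cannot be told from reads of Ctsd.

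The iron list held 19 genes, of which 17 were detected. Its share rested on the 2 ferritin chains. Ftl1 had 15550, 14493, 10620, 11681 and 15995 TPM in replicates 1 to 5, lowest in replicates 3 and 4. The heme-degrading enzyme Hmox1 had 800 TPM, the phagosomal metal transporter Slc11a1 219 TPM and the heme transporter Slc48a1 206 TPM. The iron exporter Slc40a1, at 24.0 TPM, and the transferrin receptor Tfrc, at 79.0 TPM, were much lower. Hamp, the gene of the iron hormone hepcidin, had no count, and the haptoglobin-hemoglobin receptor Cd163 had 1.30 TPM.

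Among the 13 mitochondrial mRNAs, the cytochrome oxidase subunits mt-Co1 and mt-Co2 led, followed by mt-Atp6 of the ATP synthase and mt-Co3, and mt-Nd6, at 24.9 TPM, was lowest. mt-Nd6 is the one that is encoded on the other strand of the mitochondrial genome. The summed share of these mRNAs was 8.33%, 8.25%, 9.10%, 9.19% and 8.45% in replicates 1 to 5, higher in replicates 3 and 4 than in the others. The nuclear genes of the same complexes were all detected, 77 of 77, at a median of 105 TPM and a summed share of 1.32% ± 0.0224. Cox7a2l (716 TPM), Uqcrh (705 TPM) and Cox6b1 (565 TPM) led that list. mt-Atp8 had 2023, 1890, 2777, 3573 and 4804 TPM, 2.46 times higher in replicate 5 than in replicate 2 by CPM. It overlaps mt-Atp6 by 43 bases. The sum of both genes differed 1.19-fold between libraries, and mt-Atp6 alone 1.16-fold. At 3672 CPM against 257 CPM for mt-Atp8, mt-Atp6 dominates that sum.

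Of 79 cytosolic ribosomal protein genes, all were detected and 78 were above 100 TPM, with a median of 1032 TPM. Rps4x, Rpl17 and Rps6 led at 3442, 3107 and 2782 TPM, and Rpl27 was lowest at 30.8 TPM. The low value of Rpl27 stood beside 1030 ± 76.3 TPM for Rpl27-ps3, an annotated pseudogene whose 75-base windows all occur in Rpl27 transcripts. The same held for Gm9843 (917 TPM) and Fau (204 TPM). Rpl10-ps3 (chr9:50344201-50344968, minus strand) was listed at 4354 ± 133 TPM and its parent Rpl10 (chrX:74270812-74273135, plus strand) at 246 TPM, although the longest open reading frames of both, 645 bases, are identical. Reads that fit such a pair equally well could have been placed on either gene, and the levels of single members are therefore uncertain. The first 75 coding bases of both genes are shown because they make this visible, with the start codon in capitals (GRCm38 transcripts).
Rpl10: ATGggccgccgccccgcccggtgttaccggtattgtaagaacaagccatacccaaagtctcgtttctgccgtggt
Rpl10-ps3: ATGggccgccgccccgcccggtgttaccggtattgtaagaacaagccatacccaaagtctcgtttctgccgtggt
Adding the TPM of 7 such copies, each scaled by its own length, moved the ribosomal share from 8.96% to 9.85%.

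Messenger RNAs of the translation machinery often begin with a C followed by a run of pyrimidines, the 5′ terminal oligopyrimidine tract, through which the growth regulator mTOR acts on their translation. RefSeq promoters of GRCm38.p6 (250 bases before to 50 bases after the start) were available for 58 ribosomal protein genes. A C followed by 4 pyrimidines on the gene's strand, exactly at the annotated start, was found in 14 of them (24.1%) against 3.01% of all 27025 genes with a promoter. Examples are shown with the first 5 transcribed bases in capitals. Rps6 lies at chr4:86857363-86857392 (minus strand), Rps18 at chr17:33955661-33955690 (minus), Rps27 at chr3:90213644-90213673 (minus) and Rpl35a at chr16:33056457-33056486 (plus).
Rps6: gccctgggttaagcggaagtcgggcCTCTT
Rps18: ataagacttatacgtcacttccgctCTCTC
Rps27: aaggaacaggatttccgctttcgctCCTTT
Rpl35a: aggccgcgcggcggggcttgccttcCTCTT
A match describes the letters at the annotated start only, and no match says only that these letters are not there.

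Genes of the actin cytoskeleton, which drives phagocytosis and crawling, were detected in full (29 of 29), 28 above 100 TPM. Tmsb4x, Actb and Actg1 led at 12722 ± 641, 6128 ± 101 and 3466 ± 173 TPM. Actb, often used as a reference gene, thus varied little between libraries. The calcium-binding gene S100a4 (2105 TPM) and the galectin genes Lgals3 (1576 TPM) and Lgals1 (1512 TPM) led their list of 21 detected genes. All 13 integrin genes were detected, led by Itgam (1047 TPM), Itgb2 (496 TPM) and Itgb1 (459 TPM), and the lowest was Itgb3 at 0.824 TPM.

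Metabolic genes were present in every pathway examined. Glycolysis had 20 of 20 genes detected with a share of 0.649% ± 0.0548, led by Gapdh (1443 TPM), Pkm (1030.4 TPM) and Aldoa (822 TPM). Hk3 was the highest of the 3 hexokinase genes at 149 TPM, above Hk2 (55.9 TPM) and Hk1 (35.1 TPM). Cholesterol synthesis, the tricarboxylic acid cycle, the pentose phosphate pathway and beta-oxidation of fatty acids were detected in all their 20, 17, 7 and 14 genes, with shares of 0.125%, 0.189%, 0.153% and 0.0928%. Fdps and Msmo1 (both 182 TPM) and Hmgcs1 (121 TPM) led sterol synthesis, Sdhb (216 TPM), Sdha (202 TPM) and Sdhd (201 TPM) the cycle, Pgd (553 TPM), Taldo1 (438 TPM) and G6pdx (323 TPM) the pentose pathway, and Cpt1a, the entry enzyme of mitochondrial beta-oxidation (126 TPM), Hadhb (100 TPM) and Hadha (96.5 TPM) the last of them. Lipid handling took a larger share, 1.26% ± 0.0981, from Apoe, the lysosomal membrane gene Gpnmb (1695 TPM), the fatty acid binding protein Fabp5 (1509.8 TPM) and the fatty acid receptor Cd36 (972 TPM). The monoacylglycerol lipase gene Mgll was below the floor at 0.256 TPM.

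The label of a macrophage was checked against 20 markers, and all 20 were detected, 19 above 100 TPM. The receptor gene Csf1r had 1965, 1861, 1969, 1905 and 2063 TPM, so its libraries lay close together. Adgre1, which encodes F4/80, had 2806 TPM, the pore-forming protein gene Mpeg1 2453 TPM, Cd68 1263 TPM and Itgam 1047 TPM. The lowest marker was Mertk, a receptor for dying cells, at 77.2 TPM. The myeloid growth factor receptors Csf2rb and Csf2rb2 (258 and 254 TPM), Csf2ra (74.8 TPM) and Csf3r (70.6 TPM) were far below Csf1r, and the progenitor receptors Flt3 and Kit were under the floor (0.184 and 0.164 TPM).

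Of 20 transcription factors of the macrophage lineage, 18 were detected. Maf, Spi1 (which encodes PU.1, the master regulator of myeloid genes) and Zeb2 led at 132, 131 and 125 TPM, and their libraries overlapped, so that the order among them is not settled. Irf8 (84.3 TPM), Bach1 (80.1 TPM) and Cebpa (56.4 TPM) were lower. Mitf (23.3 TPM), Nr1h3 (21.4 TPM), Tfec (18.4 TPM), Pparg (17.8 TPM), Cebpb (17.4 TPM), Runx1 (16.2 TPM), Klf2 (11.4 TPM) and Klf4 (11.1 TPM) were lower still. Cebpb shares 908 bases with Tmem189 (153 TPM) on the opposite strand, and whether the counting used strand is not stated, so its level is uncertain. Tfeb, a regulator of lysosomal genes, stood at 5.35 TPM, Spic of red pulp macrophages at 3.09 TPM and Batf3 at 1.74 TPM. Gata6 of peritoneal macrophages (0.00477 TPM) was below the floor, and Sall1 of microglia had no count.

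Marker lists of other lineages held little of the TPM. The 20 macrophage markers summed to 96354 TPM, of which Lyz2 alone gave 61245 TPM. The 18 further lists of other cell types or of tissue macrophages summed to between 1.03 TPM (erythroid cells) and 368 TPM (neutrophils and their precursors). Lists differ in length and in the level of their genes, so these sums do not measure shares of cells. No count was found for Trac, Ncr1 and Gzma of T and NK cells, Ighm and Vpreb3 of B cells, Cma1 of mast cells, Hba-a1, Alas2 and Slc4a1 of erythroid cells and Emcn of endothelium. In the lists of platelets (2 of 6 genes detected), T and NK cells (2 of 13) and B cells (2 of 9), single members stood out. Pf4 and Ppbp of platelets had 167 and 10.1 TPM, Il7r and Cd2 of lymphocytes 43.0 and 2.37 TPM and Cd79b of B cells 25.8 TPM, whereas Itga2b, Cd3e and Ms4a1 of the same lists were at or below 0.301 TPM. Of the 6 endothelial genes 4 were detected, Pecam1 at 36.9 TPM, Kdr at 6.68 TPM, Cdh5 at 6.23 TPM and Vwf at 2.51 TPM. Of the monocyte list, Ccr2 (30.1 TPM) and F13a1 (21.3 TPM) led and Ly6c2 had 8.76 TPM. Hdc (0.965 TPM) and Prss34 (1.02 TPM) led the mast cell list, Ccr3 (7.26 TPM) and Prg2 (0.824 TPM) that of eosinophils, and Hbb-bt (0.817 TPM) was the one erythroid gene above the floor. The highest genes of progenitors were Cd34 (9.73 TPM) and Meis1 (1.05 TPM), and those of stroma Acta2 (2.63 TPM) and Kitl (1.44 TPM). Of the dendritic cell list only Irf4 (2.42 TPM) and Batf3 passed the floor.

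Markers of tissue macrophages were mostly low. Cd5l and Vsig4 of Kupffer cells had 132 and 2.53 TPM, and Clec4f 0.0627 TPM. Marco and Chil3 of the alveolar list had 211 and 20.2 TPM, while Car4, Krt79 and Fabp1 had no count. P2ry12 and Tmem119 of microglia had 17.05 and 14.0 TPM, Treml4 and Vcam1 of red pulp macrophages 7.803 and 3.19 TPM, and Icam2 and Garnl3 of peritoneal macrophages 3.37 and 1.10 TPM. Among osteoclast genes Acp5 and Ctsk led, and the calcitonin receptor gene Calcr had no count. Of the Y-linked genes, Kdm5d, Uty and Eif2s3y had no count, and Ddx3y had 0.0033 TPM.

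**Figure D2:**
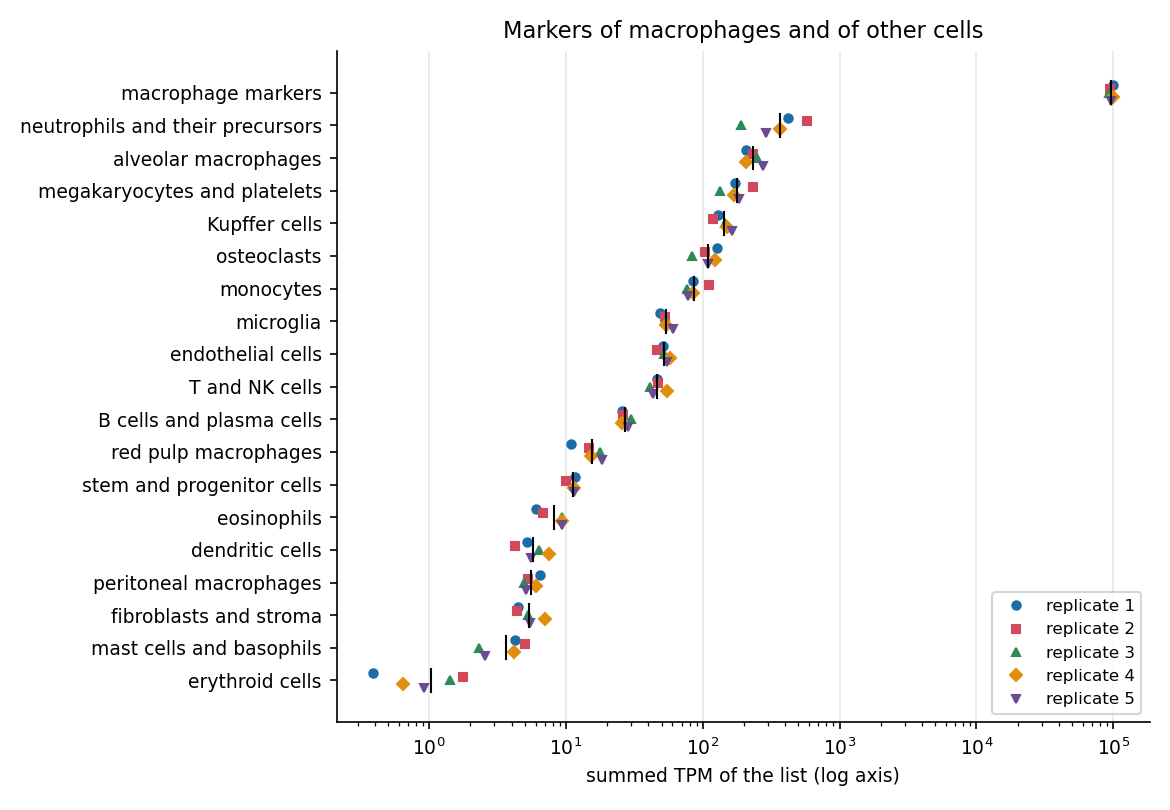
Summed TPM of each marker list in the 5 control libraries on a log axis, with points for libraries and a bar for the mean. The macrophage list summed to 96354 TPM, of which Lyz2 gave 61245 TPM, and no other list to more than 368 TPM on average.

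Some gene families were nearly silent. Of 1192 olfactory receptor genes, 6 were detected and 1027 had no count, and of 327 vomeronasal receptor genes 0 were detected. Keratins had 2 of 49 genes above the floor, collagens 4 of 44 and beta-defensins 0 of 42. In contrast, 39 of 40 proteasome genes, 78 of 78 genes of the mitochondrial ribosome and 48 of 59 Rab GTPases of vesicle traffic were detected. Families were taken by the start of the gene symbol. The genes of the table that GENCODE does not class as protein-coding, among them 20 lincRNA genes, were led by Rpl27-ps3, Gm9843, Clec7a (141 TPM), Gm8186 (75.9 TPM) and Gm15922 (23.2 TPM). Clec7a, which encodes the beta-glucan receptor Dectin-1, is classed there as a polymorphic pseudogene. These values do not measure the noncoding RNA of the cell.

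TLR3 and TLR7 were the receptors that the study set out to stimulate, and of the 12 TLR genes 10 were detected. Tlr8 was highest with 352, 337, 382, 393 and 337 TPM in replicates 1 to 5. Tlr13, which in mouse senses bacterial ribosomal RNA, followed with 190, 216, 204, 191 and 185 TPM, and Tlr7, the sensor of single-stranded RNA, with 140, 138, 161, 161 and 137 TPM. Each of these 3 lay above the next in all libraries. Tlr2, which with Tlr1 or Tlr6 senses lipoproteins, stood at 120 ± 7.85 TPM, and Tlr1 (83.9 ± 6.18 TPM) and the lipopolysaccharide receptor Tlr4 (81.8 ± 5.01 TPM) overlapped. Tlr9, the sensor of CpG DNA, had 54.2 ± 6.23 TPM, the flagellin receptor Tlr5 29.7 TPM and Tlr6 27.6 TPM. Tlr3, the sensor of double-stranded RNA, was the lowest detected TLR with 21.6, 19.8, 26.7, 25.3 and 19.6 TPM, a range that overlapped with that of Tlr6. Tlr11 (0.465 TPM) and Tlr12 (0.0857 TPM), which sense profilin in mouse, were below the floor. None of the 10 detected genes differed over 2-fold between libraries.

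**Figure D3:**
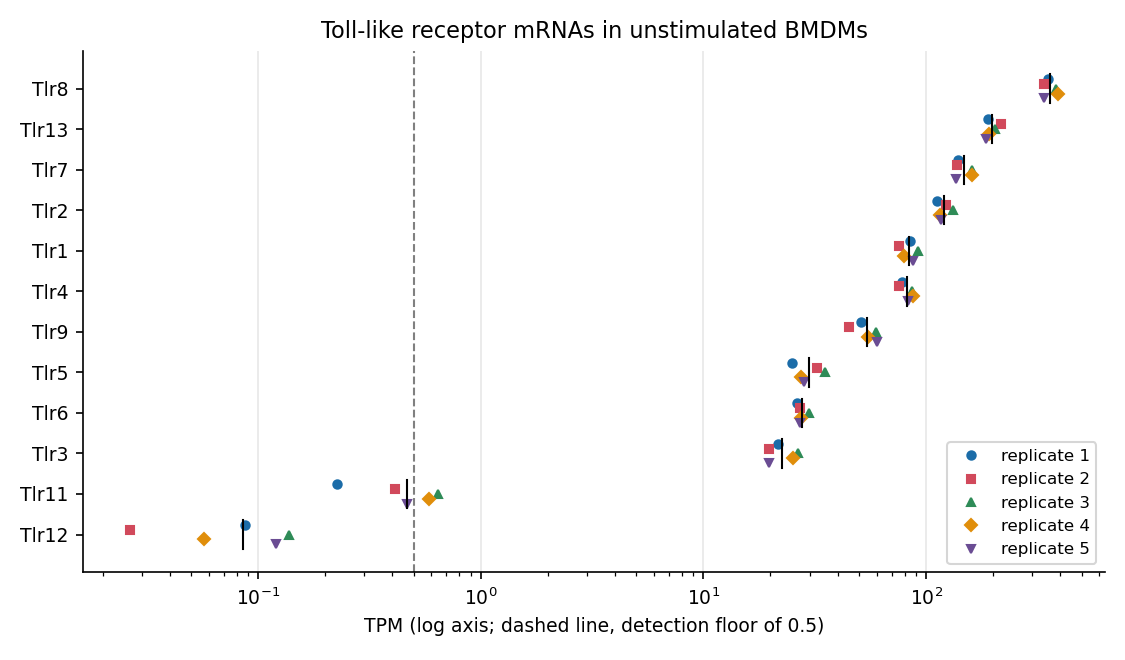
TPM of the 12 Toll-like receptor genes in the 5 control libraries on a log axis, with points for libraries and a bar for the mean. Tlr8, Tlr13 and Tlr7 lay above all others, Tlr3 was the lowest of the 10 detected genes, and Tlr11 and Tlr12 fell under the floor of 0.5 TPM.

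The partners of the TLRs were present as well, with 20 of 21 genes detected. Hsp90b1, a chaperone that folds TLRs, had 981 TPM, the co-receptor gene Cd14 922 TPM and Ly86, the partner of Cd180, 704 TPM. Unc93b1, which carries endosomal TLRs out of the endoplasmic reticulum, had 691, 628, 678, 648 and 792 TPM. Myd88, the adaptor of nearly all TLRs, had 123, 115, 136, 133 and 129 TPM. Ticam1, which encodes TRIF, the adaptor of TLR3, had 16.3, 17.2, 16.1, 15.9 and 16.0 TPM. Every library of Myd88 was thus above every library of Ticam1. Sarm1, at 0.392 TPM, was the member below the floor. All 18 cytosolic sensors in the table were detected, led by Ifi204 (643 TPM), Ddx58 (172 TPM), which encodes RIG-I, and Dhx58 (142 TPM). Irf7 (203 TPM), Stat2 (193 TPM) and Irf5 (187 TPM) were among the leading factors downstream, and Irf3 stood at 26.8 TPM.

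Interferon-stimulated genes were expressed without any added ligand. All 45 listed genes were detected, 29 of them above 100 TPM, at a median of 145 TPM. Ifitm3, which blocks virus entry, led at 2177 TPM, and Ifit3, Ifi204 and Bst2 followed at 831, 643 and 616 TPM. The summed share was 0.922%, 0.994%, 1.20%, 1.22% and 0.814% in replicates 1 to 5. Interferon genes themselves were at or near 0. Ifnb1 had 5 reads over the 5 libraries (0.113 TPM, with 0 in replicate 1), and Ifna4 and Ifng had no count.

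Factors activated by type I interferon bind the interferon-stimulated response element. Its core, GAAA followed after any 2 bases by another GAAA, was searched on both strands of the RefSeq promoters. It was present in 23 of the 34 listed genes that had a promoter (67.6%), against 3.99% of all 27025 genes. The stretches around it are shown for 5 of them because these genes return below among those that differed over 2-fold between libraries. Ifit2, which did so too, had no match, and this says only that these letters are not in its promoter windows. Each is written on the gene's strand with the match in capitals, and TTTC with TTTC after 2 bases is the same core read from the opposite strand. Ifit1 is at chr19:34640794-34640823 (plus), with the match 85 to 76 bases before the start. Rsad2 is at chr12:26456553-26456582 (minus, 120 to 111 bases before the start). Ifit3 is at chr19:34583397-34583426 (plus) and its near copy Ifit3b at chr19:34607793-34607822 (plus), and their stretches are identical. Gbp3 is at chr3:142559995-142560024 (plus, 39 to 30 bases before the start). Isg15, at chr4:156200865-156200894 (minus), is added because its match stands in the other orientation.
Ifit1: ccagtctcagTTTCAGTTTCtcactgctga
Rsad2: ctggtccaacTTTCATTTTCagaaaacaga
Ifit3: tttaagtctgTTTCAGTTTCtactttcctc
Ifit3b: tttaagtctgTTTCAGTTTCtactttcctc
Gbp3: acagtttcagTTTCTATTTCccagatccct
Isg15: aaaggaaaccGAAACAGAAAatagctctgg
The open reading frames of Ifit3 and Ifit3b are 99.1% identical, so reads may have been divided between them.

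Of 23 cytokine genes 12 were detected, 0 above 100 TPM, with a summed share of 0.0300% ± 0.00185. Tgfb1 led at 89.1 TPM, followed by the interleukin 1 antagonist Il1rn (72.3 TPM), Il15 (32.4 TPM) and Il1b (28.6 TPM). Tnf had 7.36 TPM and Il10 10.1 TPM. Il6 and Il12b were below the floor (0.0626 and 0.0372 TPM), and Il23a, Csf2 and Csf3 had no count. Of 25 chemokine genes 20 were detected, 5 of them above 100 TPM. Chemokines held 0.301% ± 0.0207, mostly from Ccl6 (1229.9 TPM), Ccl9 (1004 TPM), Cxcl16 (289 TPM), Pf4 and Ccl8 (154 TPM). Ccl2, Ccl3, Ccl4 and Ccl5 lay between 20.0 and 30.7 TPM, and Cxcl13 had no count. Among 14 chemoattractant receptors 12 were detected, led by C3ar1 and C5ar1 for complement fragments (987 and 440 TPM) and Cxcr4 (210 TPM).

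Genes of uptake and defence were abundant. The ITAM adaptors Fcer1g and Tyrobp (3370.4 TPM) exceeded the Fc receptors Fcgr3 (1018 TPM), Fcgr4 (536 TPM), Fcgr1 (503 TPM) and Fcgr2b (77.1 TPM), and all 14 genes of that list were detected. The C1q chains C1qb (3614 TPM) and C1qc (1461 TPM) led the complement list, followed by the receptor genes Itgam (1047 TPM) and C3ar1 (987 TPM) and by C1qa (868 TPM), and C1s1 was below the floor at 0.0879 TPM. Scavenger receptors were led by Cd36, Stab1 (378 TPM) and Marco, whereas Tyro3 (0.0497 TPM) and Timd4 (0.471 TPM) were not detected. All 7 genes of the phagocyte NADPH oxidase were above 100 TPM, led by Cybb (540 TPM), Ncf1 (518 TPM) and Rac2 (410 TPM). Of the 16 antioxidant enzymes, Prdx1 (1209 TPM), Sod1 (590 TPM) and Txn1 (378 TPM) led. The matrix list was led by the secreted phosphoprotein gene Spp1 (3216 TPM), Thbs1 (1457 TPM) and the protease inhibitor Cst3 (1429 TPM).

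Presentation by MHC class I held 1.66% ± 0.0347 with all 18 genes detected, led by B2m, H2-D1 (1890.0 TPM) and H2-K1 (1321 TPM). MHC class II held 0.141% ± 0.0306, led by the invariant chain Cd74 (772 TPM), H2-Aa (288 TPM) and H2-Eb1 (140 TPM). Its transcriptional activator Ciita had 4.90 TPM, and H2-Oa was below the floor at 0.237 TPM.

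Genes linked to alternative activation held 0.128% ± 0.00679 of the TPM, mostly from Tgm2, and those of classical activation 0.0202% ± 0.00235. Of the 13 genes of alternative activation 10 were detected, with Tgm2 (951 TPM), Mrc1 (174 TPM), Il4ra (74.2 TPM), Arg1 (30.0 TPM), Chil3 (20.2 TPM), Clec10a (16.1 TPM), Mgl2 (5.83 TPM), Irf4 (2.42 TPM), Ccl24 (1.99 TPM) and Ccl22 (0.696 TPM) above the floor, Pdcd1lg2 (0.394 TPM) and Ccl17 (0.209 TPM) below it, and Retnla without a count. Tgm2 overlaps Rprd1b on the opposite strand, and the sources used here do not say whether the counting used strand. Of 12 genes of classical activation 9 were detected. Cd86 (109 TPM), Il1b, Cd80 (20.1 TPM), Saa3 (19.9 TPM), Acod1 (9.89 TPM), Tnf, Cd40 (4.25 TPM), Cxcl9 (1.02 TPM) and Ptgs2 (0.954 TPM) were above the floor. Nos2, the inducible nitric oxide synthase, was at 0.302 TPM.

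DNA replication had 32 of 32 genes detected at a median of 12.97 TPM, led by Pcna (279 TPM), Rrm1 (54.6 TPM) and Gins4 (52.6 TPM). Mitosis had 25 of 25 at a median of 16.8 TPM, led by Cenpa (67.5 TPM), Top2a (55.5 TPM) and Mki67 (54.4 TPM). These values are averages over the culture and do not tell a few dividing cells from many cells with little of each RNA. Of 16 genes of cyclins, CDKs and their inhibitors 15 were detected. The inhibitor Cdkn1a stood at 185 TPM, above every cyclin and CDK gene of its list, of which Cdk4 led at 52.3 TPM. Replication-dependent histones were mostly near 0. Of 15 genes, 4 were detected and Hist1h2ab, Hist1h3b, Hist1h3c and Hist2h2ac had no count, while Hist1h1c had 259 TPM and Hist1h2bc 96.0 TPM. Most histone mRNAs carry no poly(A) tail, and their level in a library selected for poly(A) RNA does not measure their level in the cell. Of 16 immediate early genes Klf6, Fos and Atf3 led at 157, 142 and 139 TPM. Of 17 genes of the stress response, Hspa8 led at 2777 TPM, and the heat-induced genes Hspa1a and Hspa1b were at 0.876 and 1.09 TPM.

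The 5 libraries were close to each other for most genes. The biological coefficient of variation, the spread between libraries beyond counting noise estimated by edgeR, was 7.90% over 11239 genes, with a median of 7.14% and a 95th percentile of 16.1% for single genes. The median gene with a mean of at least 10 CPM differed 1.15-fold between its highest and lowest library. Hprt, which the study used as internal control, had 209, 210, 245, 216 and 218 TPM. Of 8170 genes with a mean of at least 10 CPM, 52 (0.636%) differed over 2-fold and are called variable here. The lowest library of these was replicate 5 for 23 genes and replicate 3 for 16, and the highest was replicate 3 for 20 and replicate 2 for 13. Without replicate 5, 27 genes were variable, and without replicate 3, 31. A ratio of highest to lowest rarely rises when a library is left out, so no conclusion is drawn from these lower counts.

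Interferon-stimulated genes made up the largest group. Of the 43 listed genes with a mean of at least 10 CPM, 13 were variable (Rsad2, Ifit1, Ifit2, Ifit3, Ifit3b, Mx1, Mx2, Usp18, Ifi47, Iigp1, Gbp3, Gbp5 and Cmpk2), and the median ratio of the highest to the lowest library was 1.75. Ifit1, an inhibitor of viral translation, had 213, 289, 380, 351 and 162 CPM in replicates 1 to 5. Ifit3 had 486, 612, 779, 791 and 366 CPM, in nearly the same order. Rsad2, which encodes viperin, had 193, 285, 371, 334 and 160 CPM. Replicates 3 and 4 were thus high and replicate 5 low in each. All 43 genes were highest in replicate 3 or 4, and 40 of 43 were lowest in replicate 5. Among all 8170 genes, 21.3% were highest in replicate 3, 14.3% in replicate 4, and 29.7% were lowest in replicate 5. Without replicate 5, none of the 43 genes was variable, and without replicate 3, 8 were. Leaving out the library in which 40 of 43 genes were lowest was bound to lower their ratios, so no conclusion is drawn from this. In replicates 1 to 4, Ifit1 still ranged from 213 to 380 CPM, Ifit3 from 486 to 791 CPM and Rsad2 from 193 to 371 CPM. Ifitm3, Bst2 and Irf7 differed 1.17-fold, 1.10-fold and 1.19-fold. The 21 of these genes with this core in the promoter had a median ratio of 1.70, and the 11 without it 1.79. Ifnb1 was at 0, 0.225, 0.116, 0.121 and 0.102 TPM, on 5 reads in all. Its part in the difference was not tested.

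Of the 4 neutrophil genes with a mean of at least 10 CPM, 3 were variable, by 4.48-fold to 4.996-fold. S100a9 had 37.4, 57.1, 12.6, 31.5 and 21.5 CPM in replicates 1 to 5, and its partner S100a8 24.3, 35.3, 7.88, 21.3 and 13.3 CPM. Ngp, a granule protein gene of neutrophil precursors, had 16.0, 27.1, 5.43, 14.9 and 9.52 CPM. The libraries stood in the same order in all 3 genes, with replicate 2 highest and replicate 3 lowest. The whole list of 15 genes of neutrophils and their precursors summed to between 189 and 578 TPM. Of these genes 13 were detected, and only Ly6g (0.0537 TPM) and Cxcr2 (0.271 TPM) were below the floor. In bulk RNA, fewer cells of a type and less RNA per cell cannot be told apart.

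**Figure D4:**
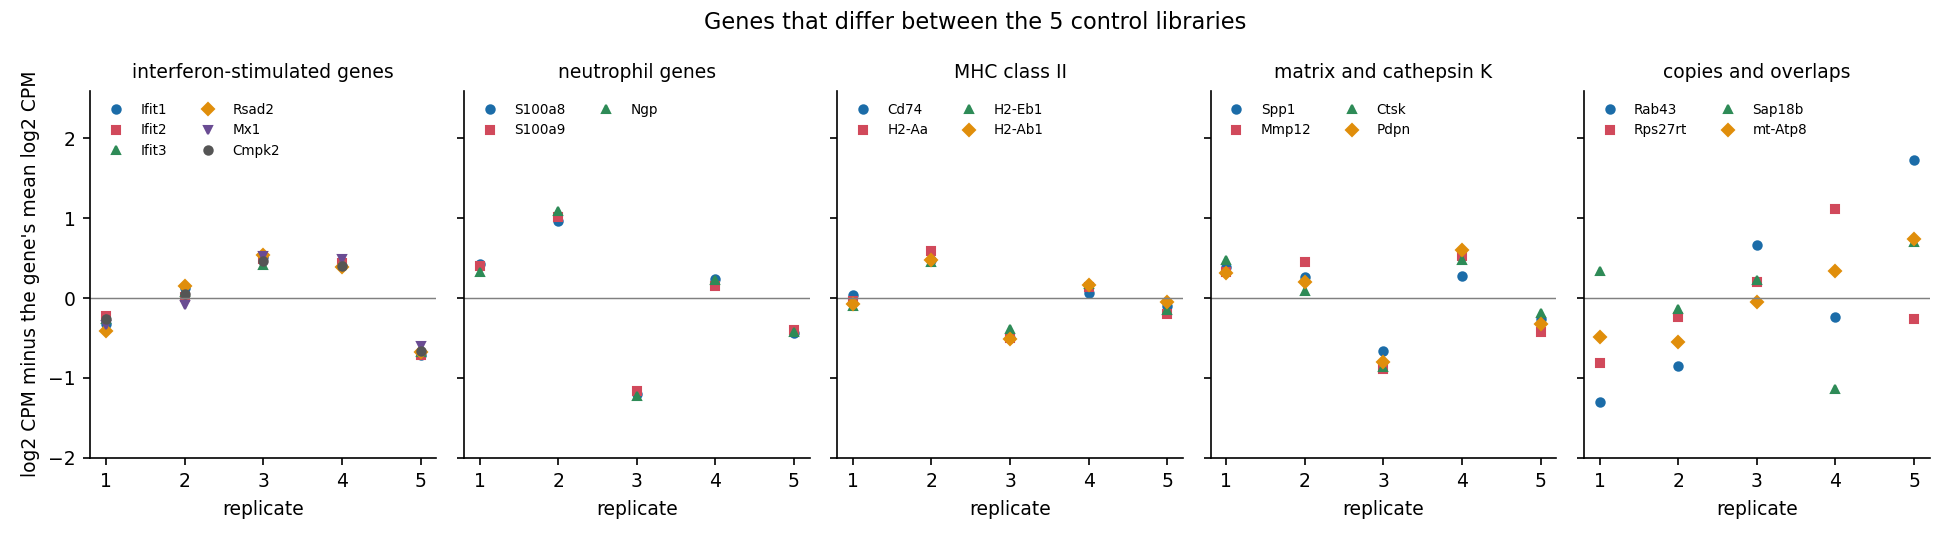
CPM of selected variable genes in the 5 control libraries as log2 CPM minus the mean log2 CPM of the gene, by replicate, with a point for each gene and library. Interferon-stimulated genes were high in replicates 3 and 4 and low in replicate 5, whereas S100a8, S100a9 and Ngp were highest in replicate 2 and lowest in replicate 3.

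Other groups moved with replicate 2 or 3. All 7 measurable MHC class II genes were lowest in replicate 3. H2-Aa had 129, 199, 93.7, 146 and 115 CPM. Spp1 had 2804, 2565, 1354, 2609 and 1783 CPM, low in replicates 3 and 5, and the elastase gene Mmp12 had 63.2, 68.8, 27.1, 72.8 and 37.6 CPM. Pdpn, Itgax and Ctsk were also lowest in replicate 3. Of 24 mitosis genes, 19 were lowest there, against 20.3% of all genes, and the median ratio of highest to lowest library was 1.26. So were 36 of 76 nuclear respiratory chain genes, 13 of 19 glycolysis genes and 15 of 34 lysosomal genes lowest in replicate 3. In contrast, 0 of 43 interferon-stimulated genes and 0 of 18 cytosolic sensors were lowest in it. Of 19 genes of cholesterol synthesis, 13 were highest in replicate 2, against 26.5% of all genes, as were 11 of 19 of glycolysis and 10 of 15 antioxidant enzymes. No fold over 2 was reached in the mitosis, cholesterol and antioxidant lists.

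Several variable genes had a near copy. Rab43 had the largest ratio, 8.24, from 3.14 to 25.9 CPM, but 74.2% of its 75-base windows occur in Gm45140, and the sum of both differed 1.28-fold. Rps27rt, Sap18b and Rps12-ps3 differed 3.82-fold, 3.58-fold and 2.67-fold, and with their parents Rps27, Sap18 and Rps12 added the sums differed 1.13-fold, 1.07-fold and 1.16-fold. In each of these pairs the sum thus differed less than the copy alone. The partners alone differed 1.17-fold (Rps27), 1.38-fold (Sap18) and 1.46-fold (Rps12), more than the sums. Gm45140 alone differed 1.19-fold, less than its sum with Rab43. At 148 CPM against 10.4 CPM for Rab43, it dominates that sum. Tgtp2, with 81.4% of its windows in Tgtp1 (2.24 CPM), differed 2.35-fold alone and 2.33-fold with Tgtp1 added. The part of shared reads in these differences was not tested. Slc15a2, a peptide transporter, had 3.49, 15.1, 12.02, 18.5 and 18.0 CPM, and replicate 1 alone was low. Chil3, which encodes a chitinase-like lectin, differed 3.33-fold, highest in replicate 2 and lowest in replicate 3.

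Genes of different level differed in the features of their promoters. GC content was taken over the 300-base promoter, the highest where a gene had several. Its median was 57% for genes above 1000 TPM, 62.7% between 10 and 100 TPM and 48.0% for genes without a count. TATAAA, searched on both strands of the window, was found in 29.2% of the 89 genes above 1000 TPM with a promoter, in 7.59% of those between 10 and 100 TPM and in 24.2% of those without a count. CCAAT, likewise on both strands, was in 41.1% of all 27025 genes with a promoter. Among the function lists its share was highest in MHC class II (6 of 6), cholesterol synthesis (14 of 15) and mitosis (18 of 22). Other lists were below the share of all genes, such as Fc receptors (1 of 10), integrins (1 of 8) and complement (2 of 13). A gene counts as having a motif if any of its promoters holds it. Motif matches describe the window and say nothing of binding.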

How the data were processed

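RNA of BMDMs was sequenced from one end with the TruSeq Stranded mRNA kit. The authors trimmed reads (Phred score under 20, length under 25 bp), aligned them to GRCm38.p6 with the Ensembl annotation, allowing up to 5 hits per read, and counted them per gene in CLC Genomics Workbench. Its version, how strand was used in counting and the share of multiply matching reads were not stated in any source used here. The deposited counts are raw counts per gene and library, and the deposited TPM were scaled by the authors to the same sum in each library. The table also holds the authors' fold changes and p-values between groups, and 20 further per-sample columns, none of which was used. Other deposited tables were not used.

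Levels of genes were compared in TPM, since it is per length. CPM, TMM factors and dispersions (intercept only, filterByExpr) were computed from the counts with edgeR 4.0.16 in R 4.3.3, and DESeq2 1.42.0 gave alternative size factors. The dispersion step was tested on simulated data. Tables and figures were made with Python 3.11.15, numpy 2.4.6, pandas 2.3.3 and matplotlib 3.10.9. Detected means a mean above 0.5 TPM, and variable means a mean of at least 10 CPM and a ratio of highest to lowest library above 2. Gene types came from GENCODE vM21, promoters from RefSeq (GRCm38.p6), and shared sequence was measured as the percent of 75-base windows of a gene's transcripts that occur in another gene, with open reading frames taken as the longest of a gene. No gene set or group test was made. Alternatives were the share of counts, TPM without mitochondrial genes, other floors and ratios, other scale factors and leaving out each replicate. Of the genes in the lists, 11 were not found in the table under their symbol and were not analysed here.

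The control libraries were taken by their label. They, the gene lists and the rules were chosen with earlier results of these data known. Named are the 20 protein-coding and 5 other genes of highest TPM, the 3 highest members of each function list and the members without a count, all TLRs, lineage factors and activation genes, the 2 highest members of each marker list, the 10 largest ratios between libraries, Hprt, and members needed to show a range. Gene families, genes with near copies, and the lists named for CCAAT were chosen after their values were seen. Some members of the lists count in them but are not reported here by name.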

Additional observations from a re-analysis of the deposited data

Results flagged for a closer look

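In a group of 5 libraries, the highest or lowest was marked where its distance from the nearest other library exceeded a fraction of 0.71 of the whole range, and chance marks about 1 in 20 groups. Of 323 genes named above 14 were marked, and of 61 lists 5. The 323 include genes below the floor, which could not be marked. Genes and lists also overlap, so these counts cannot be set against that rate. The values are given without explanation.

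Replicate 5 was highest for the complement list, at 1.06% of TPM, and for the 3 C1q chains, with C1qa at 1056 TPM, C1qb at 4092 TPM and C1qc at 1749 TPM. It was also highest for the metal transporter Slc11a1 (253 TPM). Replicate 2 was highest for the list of scavenger receptors (0.280% of TPM), antioxidant enzymes (0.486%) and monocyte markers (0.0111%), and for Hmox1 (1101 TPM), Actg1 (3772 TPM) and F13a1 (35.1 TPM). It was lowest for stem and progenitor markers (0.000996%), Cd34 (8.48 TPM), Fcgr3 (989 TPM) and Nr1h3 (19.1 TPM). Replicate 3 was highest for Acod1 (12.98 TPM), Hist1h2bc (106 TPM), Mitf (25.4 TPM) and Hprt (245 TPM).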

How the results depend on the processing

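Of the values under alternative settings, 103 moved by less than the spread between replicates, or for counts by less than 1.5 times, and 32 moved by more. For the biological coefficient of variation, the SD of its values without each replicate in turn took the place of that spread. Leaving out a replicate cannot move the mean share of a list or of the leading genes by as much as the spread between replicates. Such shares without a replicate were therefore bound to be among the 103, and no conclusion is drawn from them. By share of counts in place of TPM, the 10 leading genes held 12.1% and the 100 leading genes 28.5%. The lists then held 6.28% (macrophage markers), 8.97% (lysosomal genes), 1.97% (iron), 3.97% (ribosomal proteins), 2.45% (translation factors), 3.66% (mitochondrial mRNAs), 0.602% (nuclear respiratory chain), 1.43% (lipid handling), 3.71% (actin), 0.646% (S100 proteins, galectins and annexins), 0.700% (Fc receptors) and 0.999% (MHC class I). With the mitochondrial genes taken out of TPM, the 10 and the 100 leading genes held 18.9% and 38.6%, and the lists 10.5% (macrophage markers), 12.04% (lysosomal genes), 9.80% (ribosomal proteins), 3.07% (translation factors), 1.45% (nuclear respiratory chain), 1.38% (lipid handling), 4.37% (actin), 1.24% (S100 proteins, galectins and annexins), 1.28% (Fc receptors) and 1.82% (MHC class I). These shifts follow from the scales themselves, since TPM divides by length and a share rises when a part of the total is left out. With 7 copies added, a choice made after seeing the data, ribosomal proteins held 9.85%.

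The count of detected genes stayed between 10674 and 11559 under every floor tried and between 11186 and 11215 without each replicate in turn. The count of variable genes, 52, rose to 296 at a mean of at least 1 CPM and to 287 at a ratio above 1.5. It was 27 to 48 without each replicate in turn, 27 without replicate 5 (all 27 among the 52) and 31 without replicate 3 (29 among the 52). Such lower counts follow from the ratio, which rarely rises when a library is left out. The biological coefficient of variation was 6.92% to 8.48% without each replicate, lowest without replicate 5. Interferon-stimulated genes held 0.910% of TPM without replicates 3 and 4, a choice made after seeing the data, as were the counts of variable genes per list without each replicate. No paired analysis was possible because 1 group was described and its values come from no test.

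With 5 libraries of 1 group, a gene high in 1 library cannot be assigned to a culture, an animal or a library preparation. Counts of genes near the floor rest on few reads, and levels of genes with near copies depend on how reads with several matches were placed.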
